A study of Mus musculus with 5 samples.

Results

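The cells described here carry the label of monocyte-committed granulocyte/monocyte progenitors (GMP) of mouse bone marrow. They were taken as GMP cells with 5 or more UMIs of Irf8 and no UMI of Cebpe, and their commitment was not tested. A UMI (unique molecular identifier) counts 1 captured RNA molecule. The rule took 2476 of the 8027 GMP cells that had 500 or more detected genes and at most 10% of UMIs from mitochondrial genes, which is 30.8% (exact binomial 95% interval 29.8 to 31.9). The whole series held 28894 such cells. They are called member cells below, and the other 5551 GMP cells served as the comparison.

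The study profiled progenitors sorted from wild-type C57BL/6 mice with the 10x Genomics 3' single-cell kit, with no treatment named. GMP were sorted as lineage-negative, KIT+, SCA1-, CD34+ and CD16/32+ cells. The other gates were LSK (lineage-negative, SCA1+, KIT+), CMP (KIT+, SCA1-, CD34+, CD16/32-) and MEP (KIT+, SCA1-, CD34-, CD16/32-). Each gate is 1 library, the labels do not say how many animals were pooled, and the mice's age is not given in the sources used here. No test between groups of cells was therefore possible. All intervals below are 95% intervals that cover counting error only.

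GMP give rise to monocytes and neutrophils. IRF8 is a transcription factor of the monocyte and dendritic branch, while C/EBPε, the product of Cebpe, drives the late granule programme of neutrophils and eosinophils. Early myeloid progenitors of both branches express primary granule proteases, and secondary granule proteins such as cathelicidin and lactoferrin follow later in neutrophil maturation. Irf8 lies on chromosome 8 at 120736358 to 120756694 (plus strand) and Cebpe on chromosome 14 at 54710360 to 54712174 (minus strand), both protein-coding genes of GRCm38.

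The cells were chosen by their Irf8 and Cebpe counts, and every other gene was read in the same cells, so the differences within GMP are given as a description. Member cells held a median of 9 Irf8 UMIs, with a 10th percentile of 5, a 90th of 15 and a highest value of 29. The limit fell inside a continuous distribution: 325 member cells had exactly 5 Irf8 UMIs, and 325 cells without Cebpe had exactly 4. Across that limit Ly86 was 282 CPM (a gene's count over the summed cells, scaled to 1000000 UMIs) at 5 UMIs and 270 at 4. F13a1 was 310 and 262 CPM, and Klf4 39.3 and 28.8 CPM. The rule also read depth. With GMP cells ordered by UMIs and cut into 3 equal parts, member cells made up 20.1% of the shallowest part, 34.0% of the middle and 38.5% of the deepest. The median depth was 9767 UMIs in member cells and 8708 in the rest.

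**Figure D1:**
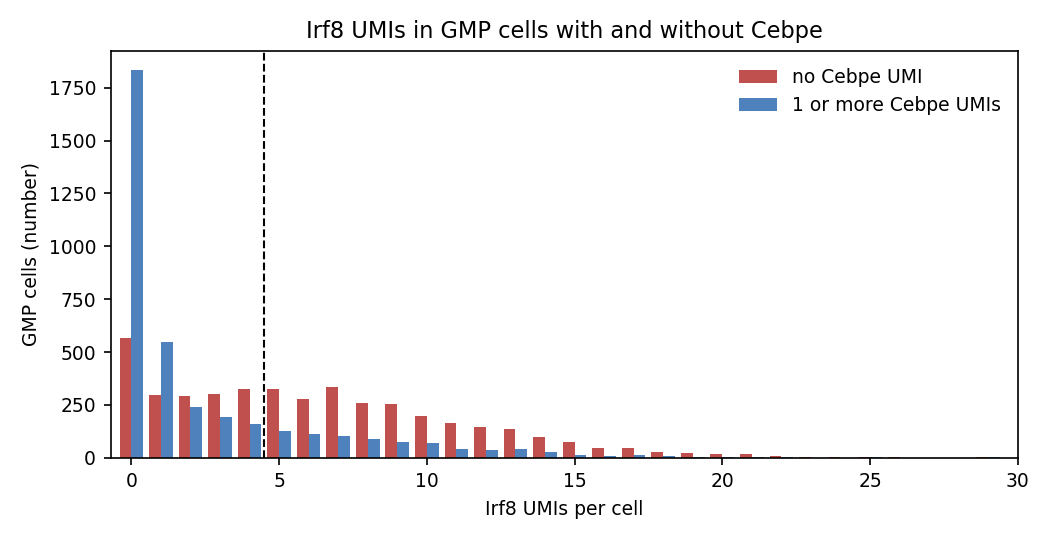
Number of GMP cells (y axis) by Irf8 UMIs per cell (x axis), for cells without a Cebpe UMI (red) and with 1 or more (blue); the dashed line is the limit of the rule, and the red bars to its right are the 2476 member cells. Red bars pass through the limit without a gap, with 325 cells at 4 UMIs and 325 at 5.

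The remaining GMP cells were of 3 kinds, which serve as reference levels throughout. In 1779 cells neither gene reached the limit (no Cebpe, under 5 Irf8 UMIs; median depth 6900 UMIs), 2974 cells had Cebpe with under 5 Irf8 UMIs (8976.5), and 798 cells had Cebpe together with 5 or more Irf8 UMIs (10766.5). Barcodes recur between libraries: 130 GMP barcodes were also cells of LSK, 36 of CMP and 57 of MEP, and 76 member barcodes occurred in another library.

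Of the labelled markers besides Irf8, Ly86 was called higher in member cells and Csf1r was not. Ly86, which encodes MD-1, the partner of the Toll-like receptor homologue RP105, stood at 318 CPM in member cells and 122 in the rest, a log2 ratio of 1.39 (1.34 to 1.44). Csf1r, the receptor for the monocyte growth factor M-CSF, was low in both, 32.6 against 12.8 CPM, with a log2 ratio of 1.35 (1.20 to 1.51). To compare shares of cells, each cell was thinned to 5000 UMIs, which left out 104 member cells and 844 others. Ly86 was then seen in 76.7% of member cells and 32.7% of others. The part of free RNA in these shares was not tested. As a reference, 450 GMP cells outside the rule were used, with 10 or more UMIs of the basophil genes Prss34, Mcpt8 and Cpa3. Their median depth was 7422 UMIs. Ly86 was seen in 8.12% of the 357 of these that could be thinned. Without thinning the shares were 91.2%, 41.1% and 12.4%. Csf1r was seen in 15.6% of thinned member cells, 5.91% of others and 2.24% of basophil-gene cells (26.6%, 9.82% and 3.33% unthinned).

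Of 6616 genes with 10 CPM or more in either group, 24 (0.363%) were called higher in member cells and 34 (0.514%) lower, where a call needed 50 CPM in the higher group and a 2-fold ratio. Irf8 and Cebpe are among these and were fixed by the rule. The median log2 ratio of all 6616 genes was 0.0096. The list of 16 monocyte genes, taken without Irf8, had 14 members at 10 CPM or more: all 14 were above 0, 8 were called higher, none lower, and their median log2 ratio was 1.37. The list had been put together with results of these data known.

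Among the transcription factors, Klf4, a factor needed for monocyte differentiation, had the largest ratio of the called genes. It stood at 59.5 CPM (56.5 to 62.6) in member cells and 15.1 in the rest, 3.94 times as high. In the 3 other kinds of cell it was 43.5 CPM with Cebpe and high Irf8, 17.7 with neither gene and 4.27 with Cebpe and low Irf8. Irf5, an interferon regulatory factor of myeloid cells, was 22.3 against 7.37 CPM, below the level needed for a call. Zeb2 was 173 against 114 CPM and Cebpb 288 against 197 CPM, both under 2-fold. Spi1, encoding the myeloid master factor PU.1, was nearly level at 266 and 243 CPM. Gfi1, a transcriptional repressor active in the neutrophil branch, was lower at 13.6 against 48.7 CPM, as was Myb at 105 against 201 CPM. Neither was called, and both were read after their values had been seen. Cebpa stood at 66.0 and 73.1 CPM. As whole lists the factors moved little. Of 8 monocyte and dendritic factors with 10 CPM, 6 were above 0 and only Klf4 was called, with a median log2 ratio of 0.18. Of 11 granulocyte and progenitor factors, Cebpb among them, 3 were above 0 and none was called, with a median of -0.72. Among all 6616 genes, 3477 were above 0 and 0.363% were called higher.

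Several surface and secreted molecules of monocytes were called higher. F13a1, the coagulation factor XIII A chain, was 376 CPM in member cells and 123 in the rest, 3.06 times as high, and was seen in 79.2%, 33.7% and 10.4% of thinned member, other and basophil-gene cells (90.3%, 43.1% and 17.1% unthinned). It lies on chromosome 13 at 36867178 to 37050244, in the same stretch of the chromosome as Ly86 at 37345208 to 37419036. Ccr2, the chemokine receptor by which monocytes leave the marrow, was 89.7 against 31.9 CPM (log2 ratio 1.49). Ms4a6c, a membrane protein of the MS4A family, was 682 against 268 CPM, and Fcer1g, the shared signalling chain of Fc receptors, 954 against 460 CPM. Cfp, encoding the complement regulator properdin, was 119 against 43.9 CPM. Ly6c2, the antigen of classical mouse monocytes, was abundant in both groups, 1759 and 1219 CPM, and its log2 ratio of 0.53 was no call. Slpi, a secreted inhibitor of elastase read after its value had been seen, was 1277 against 652 CPM, just under 2-fold. At 10 CPM, 1 of 8 Fc receptor and adaptor genes and 1 of 5 chemokine and chemokine receptor genes were called higher. Of 11 integrin and adhesion genes 0 were, beside 0.363% of all 6616 genes. Above 0 were 4, 4 and 9 genes of these lists, with median log2 ratios of 0.09, 0.37 and 0.43, beside 3477 of all genes.

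Lysosomal genes were higher in part. Among all 6616 genes, 3477 were above 0, with 0.363% called higher and 0.514% lower. Of 20 on the lysosomal list, 19 had 10 CPM, 15 of these were above 0, 3 were called higher and 1 lower, with a median log2 ratio of 0.33. The 3 were Ctss, the cysteine protease cathepsin S, at 98.8 against 26.5 CPM, Ctsh, cathepsin H, at 179 against 70.3 CPM, and Psap, the precursor of the saposins, at 312 against 135 CPM. The lower one was the tetraspanin Cd63, at 125 against 857 CPM. Other called genes of the 12 largest ratios were Lgals3 (galectin-3, 95.3 against 24.5 CPM), Prdx4 (a peroxiredoxin of the endoplasmic reticulum, 121 against 34.4 CPM), Tpm4 (a tropomyosin, 58.4 against 17.5 CPM), Pld4 (an endolysosomal exonuclease, 65.6 against 20.2 CPM), S100a6 (63.6 against 21.8 CPM) and Pyhin1 (88.8 against 31.1 CPM). In all 12, member cells had the highest level of the 4 kinds of GMP cell, followed by the cells with Cebpe and high Irf8. The cells with Cebpe and low Irf8 had the lowest.

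**Figure D2:**
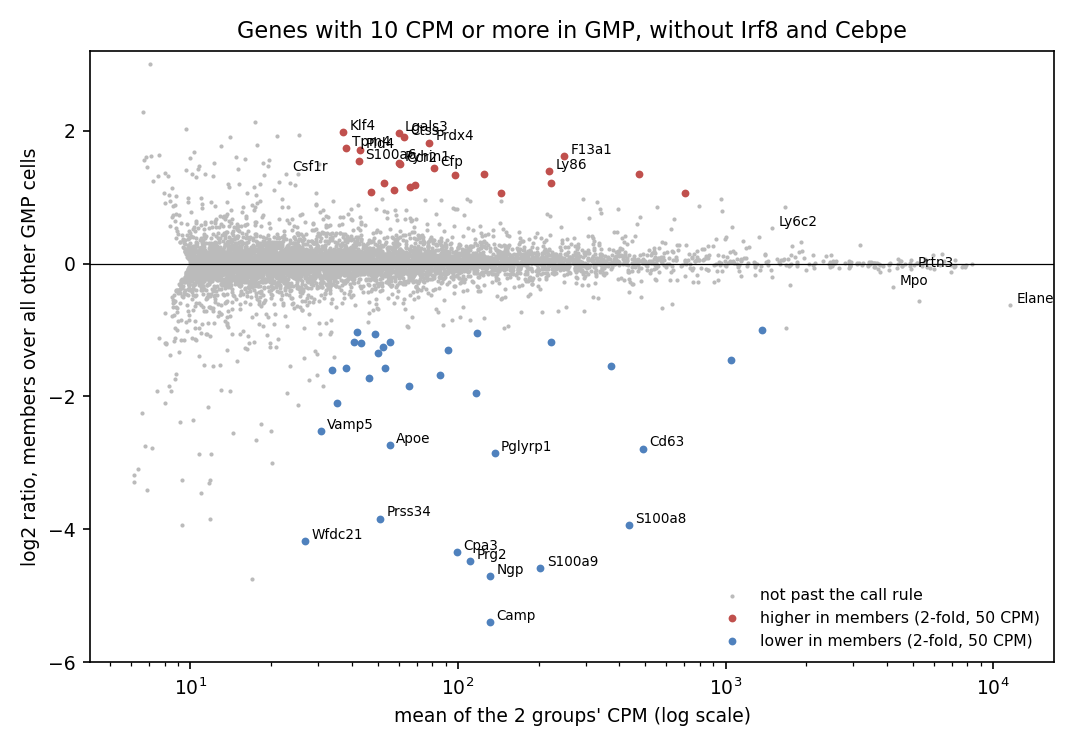
Log2 ratio of member cells over all other GMP cells (y axis) against the mean CPM of both groups (x axis, log scale) for genes with 10 CPM or more, with Irf8 and Cebpe left out. Red points are called higher and blue points lower; the named neutrophil and basophil genes reach down to -5.39 for Camp, while no called gene rises above 1.98 (Klf4).

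Several genes of later neutrophil maturation were far lower in member cells than in the rest. Camp, encoding the cathelicidin antimicrobial peptide, was 6.15 CPM (5.21 to 7.22) in member cells and 258 CPM (253 to 262) in the rest, a log2 ratio of -5.39. Ngp, neutrophilic granule protein, was 9.78 against 254 CPM. S100a9 and S100a8, which form calprotectin and lie close together on chromosome 3 (90692632 to 90695721 and 90668978 to 90670035), were 16.3 against 390 CPM and 53.3 against 816 CPM. Of 13 secondary granule and calprotectin genes, 10 had 10 CPM, 6 of them were called lower, none higher, and the median log2 ratio was -3.39. Per cell the list differed little, with a median of 5.24 per 10000 UMIs in member cells and 6.46 in the rest. These ratios moved with the cells taken. Among cells of 6000 to 14000 UMIs, Camp was at -3.26, Ngp at -2.55, S100a9 at -2.56 and S100a8 at -2.93. With cells chosen after thinning to 5000 UMIs, where 3 Irf8 UMIs were the limit, they were at -3.37, -2.88, -2.75 and -2.66. Thinning set only the choice of cells there, and the ratios used all their UMIs. Lcn2, encoding the iron-binding protein lipocalin-2, was called lower at 21.7 against 71.5 CPM. It lost its call under both choices of cells, at -0.53 and -0.66. As a mean over cells, Camp, Ngp, S100a9 and S100a8 were at -6.45, -5.72, -5.69 and -4.74, and Lcn2 at -2.59. The part of depth in these shifts was not tested. The share of thinned cells with Camp was 3.08% in member cells, 3.34% in the rest and 1.96% in basophil-gene cells (5.49%, 6.14% and 2.67% unthinned). The level outside the members thus came from a small number of cells. S100a8 was seen in 15.6% of thinned member cells, 33.8% of others and 17.4% of basophil-gene cells (28.3%, 43.4% and 25.3% unthinned). Its share in member cells was thus close to that in basophil-gene cells, and the part of free RNA in either was not tested.

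Basophil and eosinophil genes were also low. Cpa3, mast cell carboxypeptidase A, was 9.37 against 189 CPM, and Prss34, a basophil protease, 6.68 against 95.4 CPM. Prg2, eosinophil major basic protein, was 9.58 against 212 CPM. Of the 7 basophil and mast cell genes at 10 CPM, 4 were called lower and all 7 were below 0, with a median log2 ratio of -3.30. These levels lay in different cells of the comparison group: Prss34 was 342 CPM in the cells with neither rule gene and 9.33 CPM in those with Cebpe and low Irf8, whereas Camp was 28.0 and 451 CPM. Apoe, apolipoprotein E (14.5 CPM in member cells against 96.7 in the rest), was 183 CPM in the cells with neither gene and 80.3 CPM in those with Cebpe and low Irf8. Vamp5, a vesicle SNARE protein (9.13 against 52.1 CPM), was similar in both, at 61.7 and 58.7 CPM.

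**Figure D3:**
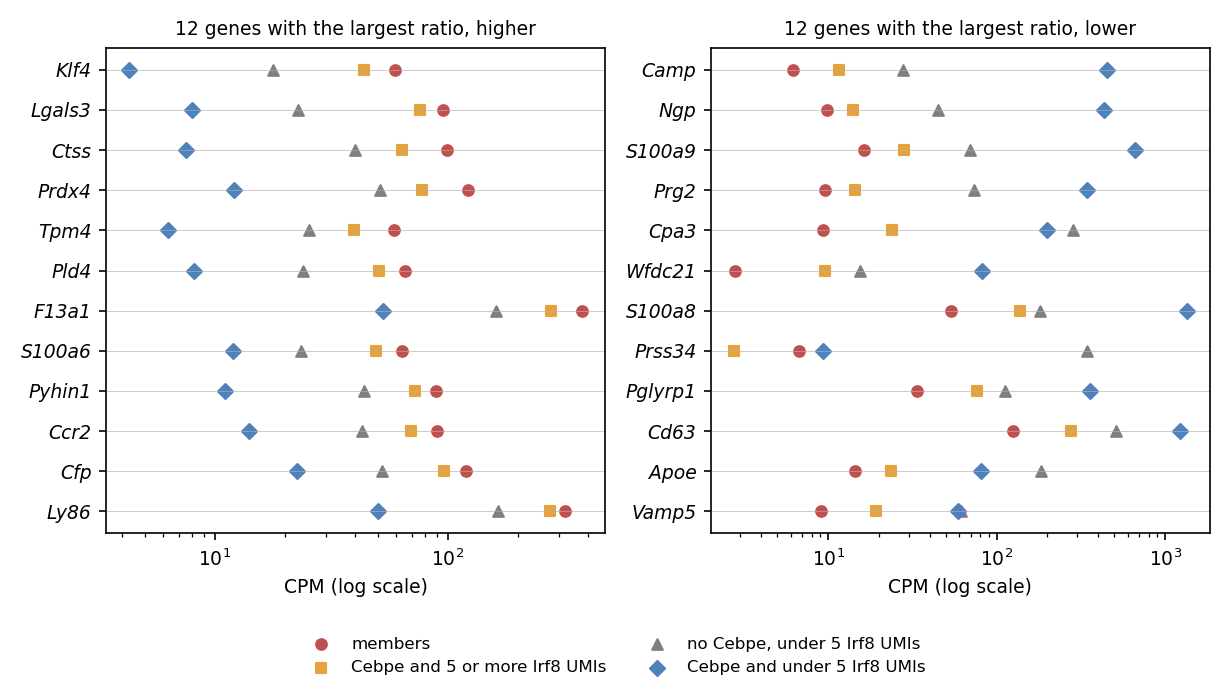
CPM (x axis, log scale) of the 12 most strongly higher and the 12 most strongly lower called genes, in member cells and in the 3 other kinds of GMP cell; each point is 1 summed class of the single GMP library. On the left, where the choice of genes favours the members, the red member points are the furthest right in all 12 genes. The blue points (Cebpe, low Irf8) are the furthest left. On the right, Prss34 is the one gene where another class, Cebpe with high Irf8 (2.75 CPM), lies below the members (6.68 CPM).

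Primary granule genes, by contrast, were highly expressed in member cells. Elane, neutrophil elastase, was their most abundant granule transcript at 9110 CPM, against 14014 in the rest (log2 ratio -0.62). Ctsg, cathepsin G, was 4270 against 6288 CPM, Mpo, myeloperoxidase, 3728 against 4745 CPM, and Prtn3, proteinase 3, 4807 against 5088 CPM. Of 11 genes on this list 1 was called lower, Ms4a3, a membrane protein of the MS4A family that marks GMP, at 912 against 1829 CPM, and the list's median log2 ratio was -0.56. Ms4a3 lay on the threshold and lost its call with 10 or more Irf8 UMIs as the limit (-0.97), with a mean over cells (-0.97), under median-of-ratios factors and against the cells with neither rule gene (-0.43). Shares of cells could not describe these genes. Elane was seen in 99.96% of thinned member cells and in every thinned basophil-gene cell (99.92% and 99.56% unthinned), whose Elane level was 5580 CPM. Nkg7, a granule membrane protein, was called lower at 561 against 1528 CPM.

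Cell by cell, the monocyte genes overlapped between the kinds of cell. In member cells the 15 monocyte genes other than Irf8 summed to a median of 38.0 per 10000 UMIs of the cell, with a 10th percentile of 21.1 and a 90th of 58.0. The cells with Cebpe and high Irf8 were close, with a median of 34.8 (18.3 to 56.5), and the cells with Cebpe and low Irf8 had a median of 11.4 (2.31 to 30.2). The cells with neither rule gene had a median of 20.6 and the widest spread, from 2.17 to 45.8, and 17.9% of them lay above the members' median. Of the 5 genes Ly86, Csf1r, Ly6c2, F13a1 and Ccr2, 43.2% of thinned member cells had 3, 27.5% had 4 and 3.84% had all 5, while 0.211% had none. In the rest, 41.4% had 1 and 9.73% had none.

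**Figure D4:**
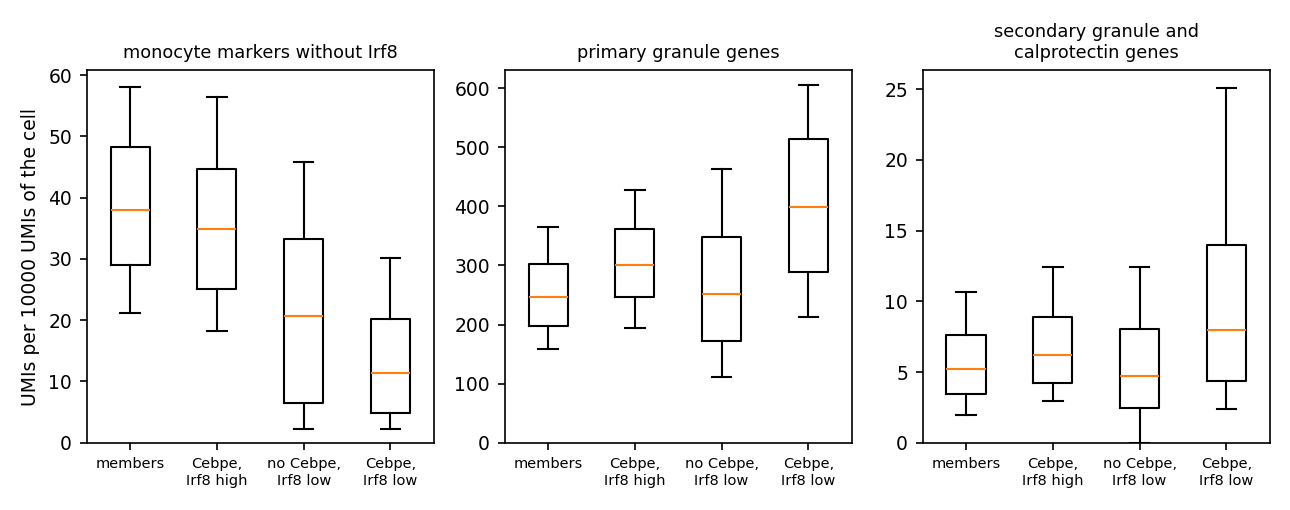
UMIs per 10000 UMIs of the cell (y axis), summed over 3 gene lists, in the 4 kinds of GMP cell; boxes span the 25th to 75th percentile with the median as a line, and whiskers the 10th to 90th percentile of cells. The members' monocyte box (median 38.0) lies above that of the cells with Cebpe and low Irf8 (median 11.4), while their primary granule median of 246 is close to the 252 of the cells with neither gene.

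Compared with single kinds of GMP cell, the member cells differed most from those with Cebpe and low Irf8, where 58 genes (0.87%) were called higher and 52 (0.78%) lower. Against the cells with neither gene, 16 (0.241%) were higher and 26 (0.392%) lower. All 16 were among the 24 above, so that 8 calls were lost. Among these were Ly86 (log2 ratio 0.96), Ms4a6c (0.93) and Fcer1g (0.75). Of the 34 lower calls 18 were shared, 16 were lost, among them Camp, Ngp, Lcn2, Nkg7 and Ms4a3, and 8 others were added. Camp and Ngp, both at -2.19, were then under 50 CPM in the comparison cells. Against cells with Cebpe and 5 or more Irf8 UMIs, no gene was called higher (0%) and 4 were lower (0.0616%): Cebpe itself, S100a8 (53.3 against 137 CPM), Pglyrp1, a peptidoglycan-binding granule protein (33.5 against 76.5 CPM), and Cd63 (125 against 275 CPM).

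None of the sorted antigens was called between member cells and the rest. Kit was 28.2 CPM in member cells and 38.3 in the rest, Cd34 123 and 116 CPM, Fcgr3 176 and 224 CPM and Fcgr2b 55.5 and 64.6 CPM. Ly6a, which encodes the SCA1 antigen absent from the gate, was 1.14 and 1.09 CPM. No gene of division was called. All 20 genes of G2 and mitosis were above 0, with a median log2 ratio of 0.22, and of 20 S phase genes 17 were above 0 with a median of 0.10, beside 3477 of all 6616 genes. Mki67 was 142 against 103 CPM and Top2a 289 against 223 CPM. The G2 and mitosis genes summed to a median of 19.0 per 10000 UMIs in member cells and 14.1 in the rest, beside the deeper median of member cells, and the part of depth in this difference was not tested. Glycolysis (14 genes, median log2 ratio 0.02), ribosome biogenesis (15 genes, -0.08), interferon response (10 genes, 0.08) and MHC class I presentation genes (10 genes, 0.04) held no called gene. With 0.363% of all genes called higher and 0.514% lower, lists this short can hold no call by their size alone.

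Markers of other cell types were sought in the member cells. At 0 counts were 3 of 8 macrophage genes (C1qa, C1qb, Marco) and 3 of 17 dendritic genes (Siglech, Cd209a, Irf4). Other dendritic genes were present: 4 had 10 CPM, 3 of these were above 0 and none was called, with a median log2 ratio of 1.62. The dendritic list summed to 119 CPM in member cells and 72.6 in the rest. Also at 0 counts were 6 of 10 lymphoid genes (among them Il7r, Rag1, Cd79a, Cd3e and Gzma) and 4 of 10 erythroid genes (among them Epor). The 8 macrophage genes summed to 6.36 CPM and the 8 megakaryocyte genes to 3.83 CPM. Among the MHC class II genes of antigen-presenting cells, Cd74 came almost wholly from very few cells. Cd74, the invariant chain, was 26.3 CPM in member cells and 0.684 in the rest, and 630 of its 644 UMIs (97.8%) lay in 8 member cells with 5 or more UMIs of Cd74, H2-Aa, H2-Ab1 and H2-Eb1. These 8 had a median depth of 4592 UMIs, 17965 CPM of Cd74, 8127 CPM of H2-Aa, 1169 CPM of Elane and no count of F13a1 or Csf1r. No UMI of the 4 genes was seen in 2019 member cells, and 449 had 1 to 4. The list of 10 MHC class II genes summed to 311 CPM in member cells and 210 in the rest. With the 8 cells left out, the same 24 and 34 genes were called.

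Member cells varied along Irf8 and along Elane. Per 10000 UMIs, 1069 had more than 10 of Irf8, 1253 had 5 to 10 and 154 fewer than 5, with median depths of 8954, 10150 and 12303.5 UMIs. Between the first and the last of these, 18 genes (0.272%) were called higher and 3 (0.0453%) lower, Irf8 included. Lgals3 was 155 CPM in the first and 16.9 in the last, S100a6 93.8 and 24.4 CPM, Pld4 88.9 and 25.9 CPM, and the lysozyme gene Lyz2 803 and 335 CPM. The 3 lower genes were Hdc, the histamine-forming enzyme (21.9 and 58.7 CPM), Pglyrp1 (25.8 and 53.7 CPM) and Cd63 (91.4 and 183 CPM). Cd74, whose UMIs lay nearly all in the 8 cells above, is among the 18 at 67.3 and 0 CPM. This split also reads depth: with 5 or more Irf8 UMIs in every member cell, fewer than 5 per 10000 needs more than 10000 UMIs. The part of depth in these differences was not tested. Between the lowest and the highest quartile of member cells by Elane, 619 cells each, 16 genes (0.242%) were called higher and 20 (0.303%) lower. Elane, which set the split, is among the lower ones. S100a6 was 122 against 21.7 CPM, Lgals3 171 against 44.5, Prdx4 180 against 61.7, Ctss 141 against 52.4 and Ccr2 121 against 55.1 CPM. Markers of other cell types moved with this split: Cd74 was 104 against 0.50 CPM, H2-Ab1 71.0 against 21.9 CPM and the basophil gene Mcpt8 69.2 against 20.9 CPM. Nearly all Cd74 lay in the 8 cells above, 18 member cells had 10 or more UMIs of the 3 basophil genes, and the part of either in the other differences was not tested. In the other direction, Nkg7 was 224 against 1030 CPM, Ms4a3 529 against 1301 CPM, the lectin gene Clec4a2 19.9 against 74.4 CPM and the gate antigen gene Fcgr3 106 against 239 CPM. Ly86 was 370 against 262 CPM and F13a1 460 against 269 CPM, neither a call. These genes were read after their values had been seen.

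Cells under the same rule were also found in the CMP gate, a separate library. There the rule took 1268 of 3713 cells, 34.2% (32.6 to 35.7), with a median depth of 8814 UMIs against 5901 in the rest. Of 6965 genes tested, 48 (0.689%) were called higher and 84 (1.21%) lower, and the median log2 ratio of all was -0.07. Of the 24 genes called higher in GMP, 19 were called higher in CMP, which is 79.2% of the GMP calls and 39.6% of the CMP calls, and 23 had the same sign, Irf8 included. Of the 34 lower, 15 were called lower in both (44.1% and 17.9%) and 32 had the same sign, Cebpe included. No gene was called in opposite directions. The largest CMP ratio among the GMP calls was that of Lgals3, 87.0 against 5.60 CPM, followed by Pld4 (49.8 against 6.12 CPM) and Ctsh (106 against 13.2 CPM). Klf4 was 31.1 against 13.9 CPM, below the level for a call. Klf2, a related factor, was called in GMP (64.2 against 30.5 CPM) and level in CMP (156 and 160 CPM).

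**Figure D5:**
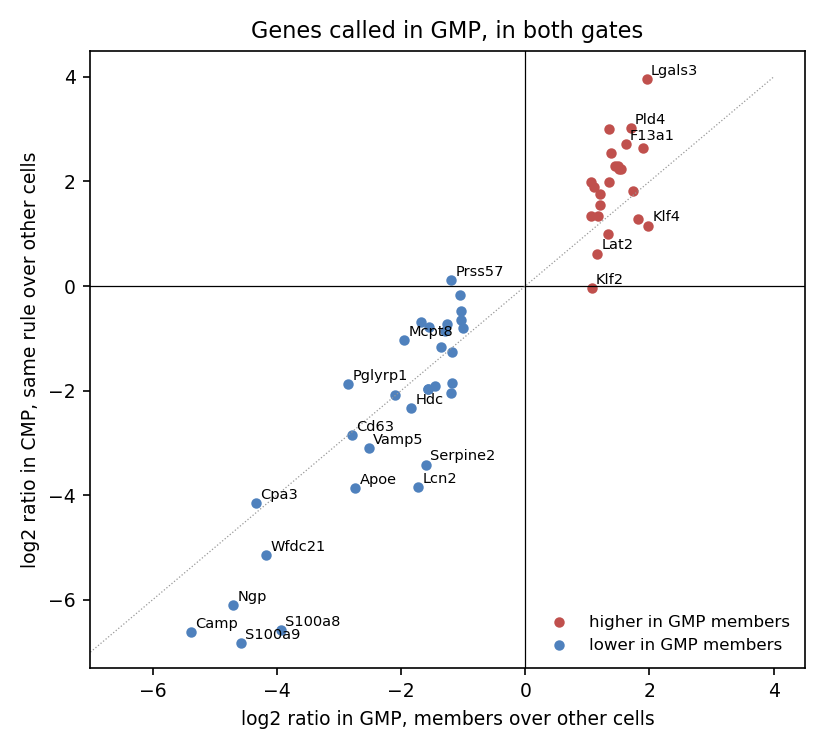
Log2 ratio in CMP (y axis, cells under the same rule over all other CMP cells) against the log2 ratio in GMP (x axis) for genes called in GMP; Irf8 and Cebpe are left out, as are Prg2 and Prss34, which are below 1 CPM in CMP. Red points (higher in GMP members) lie above 0 except Klf2, and blue points lie below 0 except Prss57, at 0.12 in CMP.

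The 15 monocyte genes other than Irf8 summed to a median of 38.0 per 10000 UMIs in GMP members and 18.7 in the CMP cells under the same rule, of which 10.6% lay above the members' median. Single genes differed in this: Ms4a6c was 682 and 699 CPM and Ly86 318 and 273 CPM, while F13a1 was 376 and 195 CPM. Across 6756 genes 55 (0.814%) were called higher in GMP members and 73 (1.08%) lower, a comparison of 2 libraries. Higher in GMP members were Elane (9110 against 769 CPM), Ly6c2 (1759 against 225), Ms4a3 (912 against 91.1), Fcgr3, part of the gate (176 against 11.3), and Dmkn, dermokine (114 against 5.54 CPM). Lower were Id3, an inhibitor of E proteins (0.163 against 96.4 CPM), the chemokine gene Ccl3 (16.6 against 469), Cd74 (26.3 against 466) and the cytokine receptor gene Flt3 (4.89 against 55.4 CPM). Whether the gate or the library sets these differences cannot be told apart.

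The promoters of the called genes were searched for the letters of known sites, as a description. In the 250 bases upstream of the start site (RefSeq, GRCm38.p6; both strands), an ETS-IRF composite site (GGAA and GAAA with 2 bases of any kind between them) was in 0 of the 17 genes called higher that had an entry, against 2.21% of 5162 genes with 10 CPM. The interferon response type (GAAA, 2 bases, GAAA), which can overlap the first, was in 1 of 17 (5.88%, against 3.18%), and a C/EBP type site, TTNNGCAA, in 1 of 17 (5.88%, against 9.36%). Of 27 genes called lower that had an entry, the first 2 patterns were in 0 and the C/EBP pattern in 4 (14.8%): Lcn2, S100a9, Nedd4 and Ngp. The gene with the interferon response letters was Ctss, whose gene starts at 95526786 on chromosome 3. Its upstream bases (chr3:95526536-95526785, plus strand) are shown with the match, 21 bases from the start site, in capitals. For the lower genes, the stretch around the C/EBP letters of S100a9 (chr3:90695928-90695971, minus strand, 236 bases upstream) follows, because S100a9 belongs to the late neutrophil group. Distances are from the RefSeq start. By the GENCODE positions, Lcn2 (32384633 to 32388252 on chromosome 2, minus strand) starts further upstream, so its searched bases lie inside the gene.
Ctss: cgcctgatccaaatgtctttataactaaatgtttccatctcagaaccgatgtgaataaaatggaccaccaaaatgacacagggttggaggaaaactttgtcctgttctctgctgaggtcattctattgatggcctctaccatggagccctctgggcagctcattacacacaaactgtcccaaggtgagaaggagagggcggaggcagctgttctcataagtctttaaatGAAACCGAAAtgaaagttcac
S100a9: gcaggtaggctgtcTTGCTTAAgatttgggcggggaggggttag
The matches are letters in the reference and are not evidence of binding.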

How the data were processed

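The deposited matrices hold raw UMI counts per gene and barcode, not normalized. Of the authors' steps, the submitters' processing notes name Cell Ranger 2.0.0, CASAVA 1.8.2, Seurat 2.3.0 and mm10, without saying what each did. Cells kept were 10870 LSK, 3713 CMP (2 identical matrices, counted once), 8027 GMP and 6284 MEP, with 75167959, 26919088, 73362645 and 80273121 UMIs. The GMP matrix held the 8064 cells the design text states, and the CMP matrix 3738 of the stated 12185, of which 3713 were kept.

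Counts were summed per class of cells and divided by the class total (CPM). Ratios carry exact conditional binomial intervals, sums exact Poisson intervals and shares Clopper-Pearson intervals; a count under 3 was set to 3 in a ratio. Doublets, the 0.8% per 1000 cells with the highest scores in a comparison with simulated pairs, stayed in and were removed as an alternative. Named genes were the 12 largest ratios in each direction without predicted, ribosomal and mitochondrial genes, the gate antigens, the labelled markers, and up to 5 members of each of 32 lists by level with every called one; not all are printed. Genes outside the rule were named after their values were seen. The members and lists were chosen with earlier results of these data known. Cluster analysis was not used. The calculation was tested on simulated data. Python 3.11.15, NumPy 2.4.6, SciPy 1.17.1 and edgeR 4.0.16 (TMM factors) were used, with gene positions from GENCODE for GRCm38.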

Additional observations from a re-analysis of the deposited data

Results flagged for a closer look

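The rule was also applied to the 2 gates outside the comparisons, where it took few cells. In LSK it took 173 of 10870 cells, 1.59% (1.36 to 1.84), with a median depth of 12668 UMIs against 5956 in the rest. These cells had 928 CPM of Dntt, the terminal transferase of early lymphoid cells, 1176 CPM of Cd74 and 65.0 CPM of Elane, where the GMP members had 0.0815, 26.3 and 9110 CPM. Their 15 monocyte genes other than Irf8 summed to a median of 3.14 per 10000 UMIs, against 38.0 in the GMP members.

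In MEP it took 14 of 6284 cells, 0.223% (0.122 to 0.374), with a median depth of 4352 UMIs against 12603.5. They had 9283 CPM of Cd74 and 10239 CPM of Cst3, and no count of Elane, Mpo, F13a1, Ly6c2 or Csf1r. Their monocyte genes summed to a median of 42.9 per 10000 UMIs and their MHC class II genes to 305, against 2.34 in the GMP members. No comparison above rests on these cells.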

How the results depend on the processing

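With 10 or more Irf8 UMIs as the limit, 1024 cells were taken in place of 2476. Against only the cells with Cebpe and under 5 Irf8 UMIs, 58 genes were higher and 52 lower; with a minimum of 10 CPM 79 and 116, and with no minimum beyond 3 counts 440 and 819. With a lower CPM minimum, more genes could be called. In the other alternatives, which were other limits on Irf8, Cebpe and mitochondrial share, thinning, a depth window of 6000 to 14000 UMIs, removal of doublets (124 members and 391 others), the cells with neither gene as comparison, TMM and median-of-ratios factors, and a mean over cells, the counts stayed within 1.5 times of 24 and 34, but not always the same genes. Against the cells with neither gene, 16 of the 24 and 18 of the 34 calls were shared. With 10 or more Irf8 UMIs, Fcer1g, Klf2, Rassf4 and Unc93b1 lost the higher call and 7 genes the lower one. Thinning set only the choice of cells, and its ratios used all their UMIs. It ended 5 lower calls (Cd27, Lcn2, Spint2, Vamp5, Wfdc21) and the depth window 3 (Lcn2, Vamp5, Wfdc21), with no higher call lost. The alternative without the 8 MHC class II cells was chosen after seeing the data. All 35 called genes that were followed kept their direction in every alternative run. Irf8 and Cebpe, whose direction the rule sets, are among them. Against the cells with neither gene, Cebpe had no count in either group, and its ratio there reflects only the floor of 3 counts. Of all 66 genes followed, 64 kept their direction. Uncalled genes were followed mainly where they had 50 CPM and a larger ratio, so these counts are partly set by the choice of genes. The exceptions, neither called, were Cd34 (log2 ratio -0.26 to 0.25) and Prtn3 (-0.17 to 0.13). TMM and median-of-ratios factors moved log2 ratios by 0.0028 and 0.0073. No paired analysis was possible because each gate is 1 library, and the spread between animals is unknown. Depth limits genes near the floor of 3 counts.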
